A study of Mus musculus with 5 samples.

Results

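The voltage-gated calcium, sodium and HCN channel genes of the mouse retina were examined in nuclei captured from the tissue and in nuclei of the whole tissue. The genes were taken by symbol alone: the calcium channel families Cacna1, Cacna2d, Cacnb and Cacng, the sodium channel families Scn with a final a or b, and Hcn. The pattern matched 40 of the 16422 genes measured, 22 pore-forming and 18 auxiliary subunits, and all 40 had passed the submitters' minimum in both conditions. The pattern itself uses symbols, but the family was chosen by earlier sight of the Positive and Input log2 values of these libraries, so the comparison is given as a description. Cacng1, Cacng6 and Scn10a were not analysed here. The table holds Scn2a, a brain sodium channel, under its older symbol Scn2a1, which the pattern does not match, and it is given once as a gene outside the set.

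Nuclei captured with streptavidin beads (Positive, n = 3, animals 12, 40 and 55) were compared with unsorted retinal nuclei (Input, n = 2, animals 40 and 55). Every animal in both groups was a tamoxifen-induced Aldh1l1-cre/ERT2+; NuTRAP+ mouse (the genotype label spells the first allele Aldhl1l-Cre/Ert2+), so the groups share the genotype and the drug and differ in the capture. NuTRAP is a Cre-dependent reporter that places a biotin tag on nuclei, and INTACT is the bead capture of such nuclei. The recombinase follows the Aldh1l1 promoter, which is active in Müller glia and also in astrocytes, and each library came from the retinae of 1 animal. Each value is a log2 value relative to an Input level of its own gene, so 0 is that level, values of different genes are not comparable as expression levels, and the depth is unknown. In 37 of the 40 genes 1 of the Input libraries was exactly 0. Fewer nuclei of a type and less RNA per nucleus cannot be told apart in bulk libraries of this kind.

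Voltage-gated channels open when the membrane potential changes. A large alpha subunit forms the pore of a calcium or sodium channel, and smaller subunits set its trafficking and gating. Beta and alpha2delta subunits bring calcium pores to the membrane, sodium beta subunits are single-span proteins that resemble adhesion molecules, and HCN channels are assembled from pore subunits that open on hyperpolarisation. In the retina, L-type calcium channels drive glutamate release at the ribbon synapses of photoreceptors and bipolar cells, sodium channels carry the spikes of ganglion cells and some amacrine cells, and HCN channels shape the light responses of photoreceptors.

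Most of the channel genes had lower values in Positive than in Input nuclei, and the calcium pores stood lowest. The log2 fold change, the Positive mean minus the Input mean, was below 0 in 32 of the 40 genes and above 0 in 8, where 53% of all genes were below 0. After quantile normalization the split was 24 below and 16 above. The median was -0.15, or 0.899-fold, against -0.02 over all genes, and the lowest single gene was Cacna1h at -0.56. All 3 Positive libraries lay below both Input libraries in 16 of the 40, where 21.8% of all genes did, and above both in 2, where 16.7% did. Limma's test over all genes called 0 of the 40 at an adjusted p under 0.05, as it called 0% of all genes in either direction, and the lowest adjusted p of the set was 0.331. At an unadjusted p under 0.05 there were 11 of the 40 lower and 0 higher, against 7.76% and 6.45% of all genes. Leaving out a library changed the 11 lower genes to 4 without Positive 12 (4.87% of all genes lower in that fit), 5 without Positive 40 (3.95%) and 15 without Positive 55 (10.9%). It left 3 without Input 40 (3.76%) and 1 without Input 55 (1.75%), which as shares of the 40, 7.5% and 2.5%, stood close to those over all genes. The median was -0.24 without Positive 55, -0.23 without Input 40, and between -0.15 and -0.11 without any other library.

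**Figure D1:**
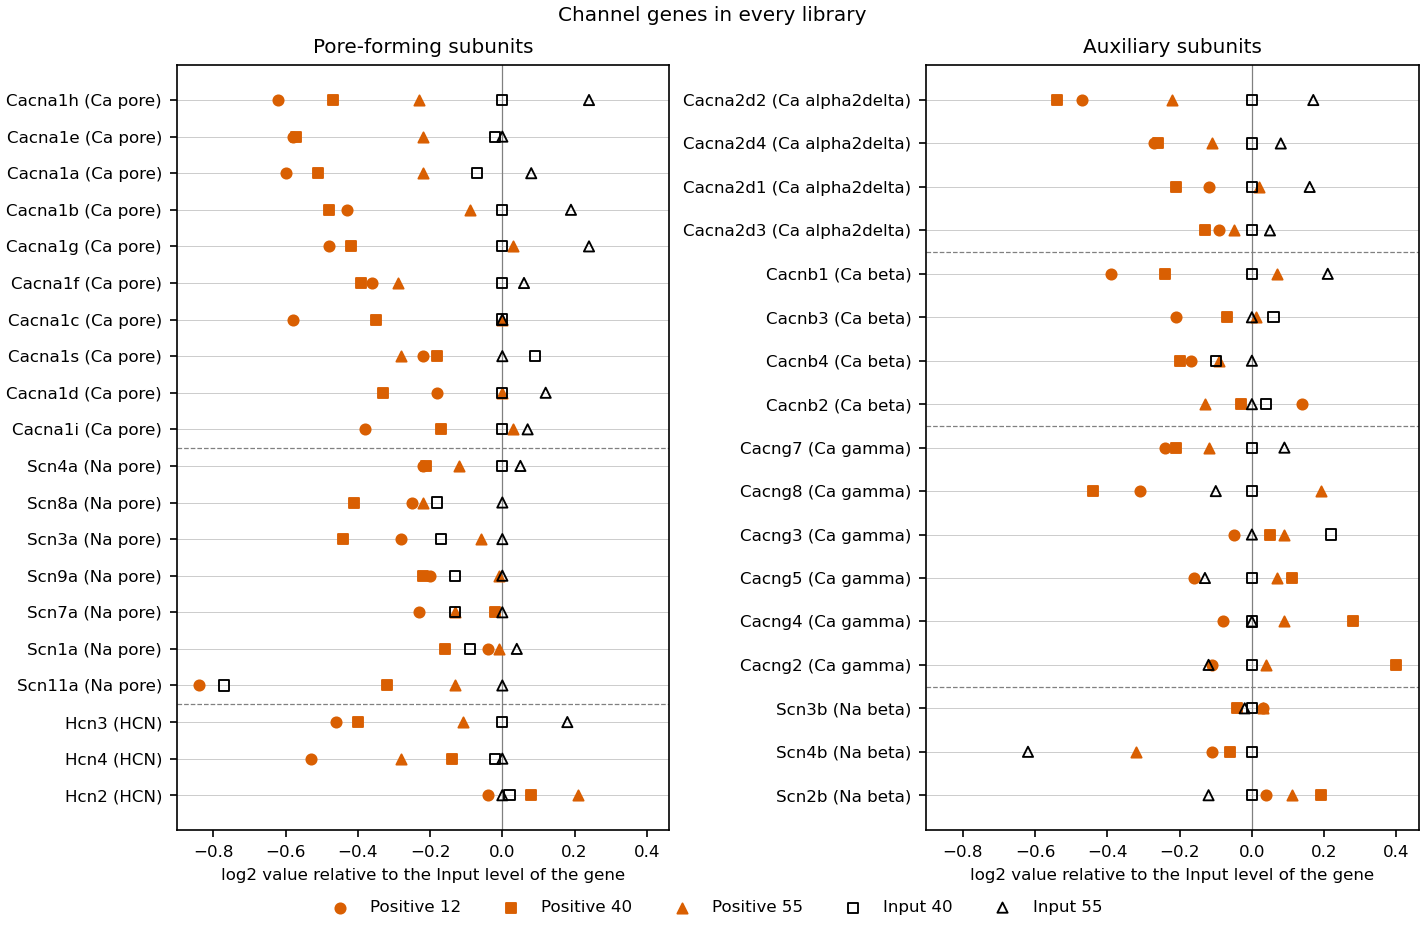
Log2 value of 37 of the 40 channel genes (x axis, relative to the Input level of that gene) in the 3 Positive libraries (filled) and the 2 Input libraries (open), with circles for animal 12, squares for animal 40 and triangles for animal 55. Pore subunits are on the left and auxiliary subunits on the right, each class ordered from its lowest log2 fold change at the top, and the filled points of most calcium pores lie left of the open ones while Scn2b shows the opposite order.

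All 10 calcium pore genes had a log2 fold change below 0, with a median of -0.39 (0.763-fold), and in 7 of them all 3 Positive libraries lay below both Input libraries, where 21.8% of all genes did. The class holds presynaptic channels (Cacna1a, Cacna1b and Cacna1e), L-type channels (Cacna1c, Cacna1d, Cacna1f and Cacna1s) and T-type channels that open at low voltage (Cacna1g, Cacna1h and Cacna1i). The direction held in all 10 genes under each of the 13 alternative settings. These are not 13 separate checks, since settings that alter only the variance model or the set of genes leave each fold change as reported. At an unadjusted p under 0.05 in limma 6 of the 10 were lower, as were 7.76% of all genes.

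Cacna1h, a T-type pore (mm10 chromosome 17, 25374287 to 25433783), had -0.62, -0.47 and -0.23 in Positive 12, 40 and 55, against 0.00 and 0.24 in Input 40 and 55. The groups did not overlap, and Positive 55 lay nearest to Input. Its log2 fold change of -0.56 (SE 0.15) was the lowest of the 40 genes (adjusted p = 0.331 in limma). The far end of its span, from 25374287 to 25374442, overlaps Tpsg1, a mast cell protease gene on the opposite strand. Tpsg1 had a log2 fold change of -0.72. The sources used here do not say whether strand was used in counting, so reads from the shared stretch cannot be told apart. Cacna1h is not alone in this: 8 of the 40 channel genes have spans that overlap other measured genes, 9 in all.

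Cacna1e, the R-type pore (chromosome 1, 154392519 to 154725920), had -0.58, -0.57 and -0.22 in Positive, against -0.02 and 0.00 in Input. Cacna1a, the P/Q-type pore of most central synapses, had -0.60, -0.51 and -0.22 in Positive, against -0.07 and 0.08 in Input. Cacna1b, the N-type pore, had -0.43, -0.48 and -0.09 in Positive, against 0.00 and 0.19 in Input. In these 3 presynaptic channels the groups did not overlap, with Positive 12 and Positive 40 close together and Positive 55 about midway to the Input libraries or nearer. Their log2 fold changes were -0.45 (SE 0.14) for Cacna1e, -0.45 (SE 0.14) for Cacna1a and -0.43 (SE 0.15) for Cacna1b. The adjusted p in limma was 0.331, 0.331 and 0.344.

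Cacna1f, the L-type pore of the photoreceptor ribbon synapse and a gene of congenital stationary night blindness (chromosome X, 7607103 to 7635196), was singled out after its values were seen for its small spread. It had -0.36, -0.39 and -0.29 in Positive, against 0.00 and 0.06 in Input. The Positive libraries had an SD of 0.05 (n = 3), and the log2 fold change was -0.37 (SE 0.08) with an unadjusted p of 0.00486 in limma, the lowest of the 40 genes (adjusted p = 0.331). Cacna1s, best known as the voltage sensor of skeletal muscle, had -0.22, -0.18 and -0.28 in Positive, against 0.09 and 0.00 in Input. It was the only calcium pore in which Positive 55 was the lowest of the Positive libraries, and its within-animal differences were -0.27 in animal 40 and -0.28 in animal 55.

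The other L-type and T-type pores were less uniform. Cacna1d, the L-type pore of neurons and endocrine cells, had -0.18, -0.33 and 0.00 in Positive, against 0.00 and 0.12 in Input. Cacna1i, a T-type pore, had -0.38, -0.17 and 0.03 in Positive, against 0.00 and 0.07 in Input. In both genes Positive 55 reached the level of Input 40, and the groups overlapped for Cacna1i. Cacna1c, the L-type pore of heart and smooth muscle, was at -0.31 (log2 fold change, SE 0.19), with animal 40 at -0.35 and animal 55 at 0.01. It had -0.17 without Positive 12 and -0.14 after quantile normalization. Cacna1g had -0.41 (SE 0.19), and its groups overlapped.

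The alpha2delta genes, which encode the extracellular subunit bound by gabapentin in its Cacna2d1 and Cacna2d2 forms, were below 0 in all 4 cases, with a median of -0.22. Cacna2d2 (chromosome 9, 107399880 to 107529343) had -0.47, -0.54 and -0.22 in Positive, against 0.00 and 0.17 in Input. Cacna2d4, the photoreceptor form that is mutated in a cone dystrophy (chromosome 6, 119236526 to 119352407), had -0.27, -0.26 and -0.11 in Positive, against 0.00 and 0.08 in Input. In both, the groups did not overlap, and the log2 fold changes were -0.49 (SE 0.13) and -0.25 (SE 0.09), with adjusted p of 0.331 and 0.340 in limma. Cacna2d3 had -0.09, -0.13 and -0.05 in Positive, against 0.00 and 0.05 in Input. Cacna2d1 had -0.12, -0.21 and 0.02 in Positive, against 0.00 and 0.16 in Input. Cacna2d3 showed the smallest difference of the class without overlap, at -0.11, while Cacna2d1 overlapped through Positive 55.

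The windows just before the start of 4 genes are shown because these genes sit at opposite ends of the set: Cacna1b, Cacna1f and Cacna2d2 with Positive below Input, and Scn2b with Positive above Input. Each is the 250 bases before the RefSeq start on GRCm38.p6, written 5′ to 3′ on the strand of the gene, and the 4 were picked after their values were seen. Capitals mark the GC box GGGCGG and the E-box CAGCTG on either strand, and these motifs do not overlap in the windows shown. Cacna1b lies at chr2:24763153-24763402 (minus strand), Cacna1f at chrX:7606853-7607102 (plus strand), Cacna2d2 at chr9:107399630-107399879 (plus strand) and Scn2b at chr9:45117626-45117875 (plus strand).
Cacna1b: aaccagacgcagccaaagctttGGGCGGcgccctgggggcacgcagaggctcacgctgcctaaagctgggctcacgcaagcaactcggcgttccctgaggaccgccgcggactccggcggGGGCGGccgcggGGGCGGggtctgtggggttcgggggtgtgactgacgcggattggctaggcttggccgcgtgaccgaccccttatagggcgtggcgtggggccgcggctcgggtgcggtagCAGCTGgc
Cacna1f: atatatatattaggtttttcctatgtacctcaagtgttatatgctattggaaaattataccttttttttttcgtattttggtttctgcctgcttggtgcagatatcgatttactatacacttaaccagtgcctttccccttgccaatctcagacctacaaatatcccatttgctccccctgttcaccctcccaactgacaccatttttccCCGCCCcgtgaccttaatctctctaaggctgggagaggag
Cacna2d2: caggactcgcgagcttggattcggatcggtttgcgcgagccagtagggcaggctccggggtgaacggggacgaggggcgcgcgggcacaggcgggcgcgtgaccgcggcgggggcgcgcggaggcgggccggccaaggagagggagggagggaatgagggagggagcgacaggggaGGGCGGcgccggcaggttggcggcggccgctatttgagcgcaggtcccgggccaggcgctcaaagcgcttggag
Scn2b: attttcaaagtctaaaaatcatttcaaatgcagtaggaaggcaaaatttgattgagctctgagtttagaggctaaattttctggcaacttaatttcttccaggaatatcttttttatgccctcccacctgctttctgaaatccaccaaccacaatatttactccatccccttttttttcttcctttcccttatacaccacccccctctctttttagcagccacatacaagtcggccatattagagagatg

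The windows of genes with lower Positive values were not of 1 kind. Cacna1b and Cacna2d2 held 29 and 34 CpG dinucleotides, whereas Cacna1f held 4 and Scn2b held 1. A window was matched for 29 of the 40 channel genes, and 14 of these 29 (48.3%) held GGGCGG, against 55.3% of 12771 genes in the table with a window. CAGCTG was found in 8 of the 29 (27.6%), against 12.5% of all. CCAAT, searched on both strands as well, was found in 8 of the 29 (27.6%), against 35.9% of all. The median number of CpG dinucleotides was 9 in the channel genes and 14 in all genes with a window. Over all such genes, those with 0 to 9 CpG dinucleotides had a median log2 fold change of -0.04, those with 10 to 19 had -0.01 and those with 20 to 56 had -0.01.

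The calcium beta genes, which encode the intracellular subunit that binds the pore between its first repeats, had smaller differences, with a median of -0.11 and all 4 below 0. Cacnb1, the skeletal muscle form, had -0.39, -0.24 and 0.07 in Positive, against 0.00 and 0.21 in Input. Cacnb3 had -0.21, -0.07 and 0.01 in Positive, against 0.06 and 0.00 in Input. In both genes Positive 12 was lowest and Positive 55 lay among the Input values. Cacnb4, the gene of the lethargic mouse, had -0.17, -0.20 and -0.09 in Positive, against -0.10 and 0.00 in Input. Cacnb2, the beta subunit of photoreceptor terminals, had 0.14, -0.03 and -0.13 in Positive, against 0.04 and 0.00 in Input. The Positive libraries of Cacnb2 lay on both sides of Input, and its log2 fold change was -0.02 (SE 0.11), the closest to 0 of the calcium channel genes. For all 4 the groups overlapped. The signs of Cacnb2 and Cacnb4 were not stable: Cacnb2 lay above 0 without Positive 55 and Cacnb4 lay above 0 after quantile normalization.

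The Cacng genes did not follow the pores. Of the 6, 3 lay above 0 and 3 below, with a median of -0.01, which was between -0.09 (without Input 55) and 0.06 (without Input 40) when 1 library was left out. Most of these proteins are known as TARPs, auxiliary subunits of AMPA-type glutamate receptors. Cacng2, which encodes stargazin, had -0.11, 0.40 and 0.04 in Positive, against 0.00 and -0.12 in Input. Cacng4, another TARP, had -0.08, 0.28 and 0.09 in Positive, against 0.00 and 0.00 in Input. In both genes Positive 40 was the highest library and Positive 12 lay within or below the Input values, so the groups overlapped. Cacng5 had -0.16, 0.11 and 0.07 in Positive, against 0.00 and -0.13 in Input. Cacng3 had -0.05, 0.05 and 0.09 in Positive, against 0.22 and 0.00 in Input. Both overlapped, with log2 fold changes of 0.07 (SE 0.12) and -0.08 (SE 0.10), and Cacng3 lay above 0 without Input 40.

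The neighbouring genes Cacng7 and Cacng8 on chromosome 7 differed from each other in their spread. Cacng7 (3336585 to 3366948) had -0.24, -0.21 and -0.12 in Positive, against 0.00 and 0.09 in Input, and it was the only Cacng gene without overlap (log2 fold change -0.24, SE 0.08, adjusted p = 0.340 in limma). Cacng8 had -0.31, -0.44 and 0.19 in Positive, against 0.00 and -0.10 in Input. Its animals went opposite ways, with -0.44 in animal 40 and 0.29 in animal 55, and its log2 fold change of -0.14 lay above 0 after quantile normalization.

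The sodium pores were closer to Input than the calcium pores. All 8 had a log2 fold change below 0, but the median was -0.07. Leaving out Positive 55 gave -0.18, leaving out Input 40 gave -0.19, leaving out Input 55 gave -0.02, and quantile normalization gave 0.04. All Positive libraries lay below both Input libraries in 2 of the 8, a share of 25% near the 21.8% of all genes. Scn4a, the skeletal muscle channel (chromosome 11, 106318593 to 106349390), had -0.22, -0.21 and -0.12 in Positive, against 0.00 and 0.05 in Input. Its difference was -0.21 (SE 0.08) on the log2 scale, with an adjusted p of 0.347 in limma. Scn8a, the main channel of mature nodes and axon initial segments (chromosome 15, 100870645 to 101045938), had -0.25, -0.41 and -0.22 in Positive, against -0.18 and 0.00 in Input. Its 3 Positive libraries lay below both Input libraries, though Positive 55 and Input 40 were only a little apart. The log2 fold change was -0.20 (SE 0.10), with -0.11 without Input 55 and -0.04 after quantile normalization.

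The channels Scn1a, Scn3a, Scn7a and Scn9a lie close together on chromosome 2 and all overlapped between groups. Scn3a, which is expressed mostly before birth in the brain, had -0.28, -0.44 and -0.06 in Positive, against -0.17 and 0.00 in Input. Scn7a, a sodium-sensing channel known from glia and sensory neurons, had -0.23, -0.02 and -0.13 in Positive, against -0.13 and 0.00 in Input. Scn1a, a channel of fast-spiking neurons, had -0.04, -0.16 and -0.01 in Positive, against -0.09 and 0.04 in Input. For each of them Input 55 was the highest library. Scn9a, a channel of pain-sensing neurons, was at -0.08 (log2 fold change, SE 0.10), and Scn1a and Scn7a had -0.05 (SE 0.09) and -0.06 (SE 0.10). These last 3 lay above 0 after quantile normalization, and Scn1a and Scn7a did so without Input 55 as well. Scn2a1, the gene outside the set that lies between Scn3a and Scn1a on the same chromosome, had -0.34, -0.50 and -0.30 in Positive, against -0.14 and 0.00 in Input. At -0.31 (log2 fold change, SE 0.10, limma's adjusted p = 0.333) it stood lower than any of the 8 sodium pores in the set.

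Scn11a, a channel of sensory neurons, had -0.84, -0.32 and -0.13 in Positive, against -0.77 and 0.00 in Input. Its 2 Input libraries were as far apart as its Positive libraries, so its log2 fold change of -0.05 (SE 0.32) carries the largest error of the set. It lay above 0 in 5 of the alternative settings.

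The sodium beta genes were the only class in which every log2 fold change was above 0, with a median of 0.16 over the class. The median was 0.32 without Input 40 and 0.06 without Input 55. Scn2b (chromosome 9, 45117876 to 45130070) had 0.04, 0.19 and 0.11 in Positive, against 0.00 and -0.12 in Input. All its Positive values lay above both Input values; Positive minus Input was 0.18 on the log2 scale (SE 0.09), and limma gave an adjusted p of 0.408. Scn4b, whose protein promotes resurgent sodium current, had -0.11, -0.06 and -0.32 in Positive, against 0.00 and -0.62 in Input. Scn3b had 0.03, -0.04 and 0.03 in Positive, against 0.00 and -0.02 in Input. Scn4b followed 1 low Input library, and without Input 55 its log2 fold change was below 0. Every library of Scn3b lay within 0.05 of 0. Scn2b and Scn4b are neighbours on chromosome 9, and the 3 Positive libraries stood in a different order in each.

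The HCN genes had a median of -0.21, which was -0.14 without Positive 12 and -0.08 after quantile normalization. Hcn3 (chromosome 3, 89146775 to 89160157) had -0.46, -0.40 and -0.11 in Positive, against 0.00 and 0.18 in Input. Hcn4, the pacemaker channel of the sinoatrial node, had -0.53, -0.14 and -0.28 in Positive, against -0.02 and 0.00 in Input. In both genes the groups did not overlap, with log2 fold changes of -0.42 (SE 0.14) for Hcn3 and -0.31 (SE 0.14) for Hcn4. The adjusted p in limma was 0.338 and 0.374, and Positive 12 was the lowest library of each. Hcn4 had -0.20 without Positive 12 and -0.16 after quantile normalization. Hcn2, a channel of brain and heart, had -0.04, 0.08 and 0.21 in Positive, against 0.02 and 0.00 in Input. Its groups overlapped, and its log2 fold change was above 0 (0.08, SE 0.10).

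Pore subunits lay lower than auxiliary subunits as a group, but not class by class. The medians were -0.39 in calcium pores, -0.21 in HCN genes and -0.07 in sodium pores. Among the auxiliary classes they were -0.22 in alpha2delta, -0.11 in calcium beta, -0.01 in Cacng and 0.16 in sodium beta genes. Of the pores 21 of 22 were below 0 and of the auxiliary subunits 11 of 18, with medians of -0.22 and -0.09. The pore median minus the auxiliary median was -0.12 over the groups, -0.21 in Positive 12 set against the mean of Input, -0.13 within animal 40 and -0.18 within animal 55. It was -0.24 without Input 40, -0.08 without Input 55 and -0.17 without Positive 55. All Positive libraries lay below both Input libraries in 12 of the pores (54.5%) and in 4 of the auxiliary subunits (22.2%), against 21.8% of all genes, so the auxiliary share was that of genes at large. By class these were 7 of 10 calcium pores, 3 of 4 HCN genes and 2 of 8 sodium pores. The auxiliary genes among them were 3 of 4 alpha2delta genes and 1 of 6 Cacng genes.

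**Figure D2:**
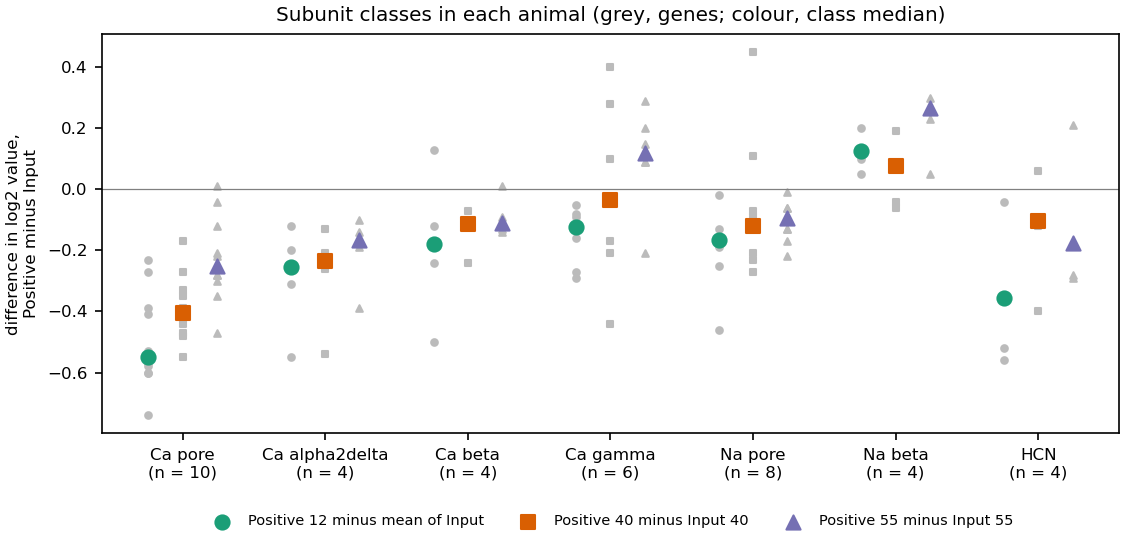
Difference in log2 value, Positive minus Input (y axis), for each subunit class (x axis, number of genes below), with grey points for 37 genes and coloured points for the class median in Positive 12 against the mean of Input, within animal 40 and within animal 55. The calcium pore medians are -0.55, -0.40 and -0.25, the sodium beta medians are 0.12, 0.07 and 0.27, and the Cacng medians lie on both sides of 0.

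The 3 Positive libraries did not differ from Input to the same degree. The median over the 40 genes was -0.22 in Positive 12 against the mean of Input, -0.17 within animal 40 and -0.11 within animal 55, with 35, 32 and 27 genes below 0. Positive 55 was the highest Positive library in 29 of the 40 genes (72.5%), against 35.6% of all genes. Among the pores Input 55 was above Input 40 in 19 of 22 (86.4%), against 56.8% of all genes, so the size of a pore difference depends on which Input library is used.

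Transcript length and base composition moved with these differences. The longest protein-coding transcript of GENCODE M21 had a median of 8384 bases in pores and 3825 in auxiliary subunits, against 3152 in all genes with one. When all genes were cut into 5 equal bins by length, 25 of the 40 channel genes were in the longest bin, and 20 of those 25 were pores. Over all 2866 genes of that bin the median log2 fold change was -0.08, and 36.1% of them had all Positive libraries below both Input libraries. In the shortest bin the median was 0.04. Of 5 equal bins by GC content, the highest also had a median of -0.08, against 0.02 in the lowest. In the 668 genes that were in the longest bin and in the upper 2 bins of GC content the median was -0.18, with 48.1% below both Input libraries. The 12 channel genes among them had a median of -0.34.

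**Figure D3:**
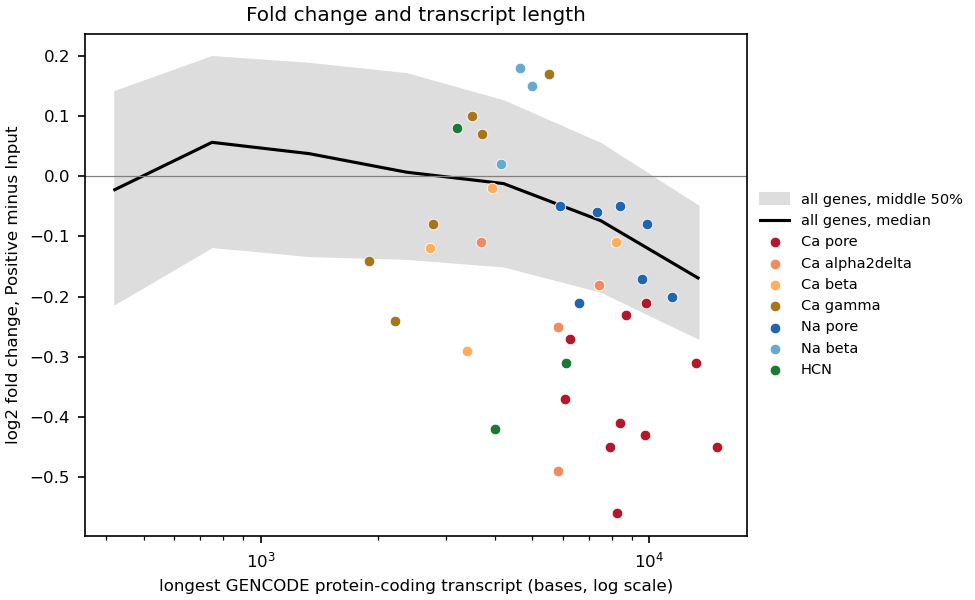
Log2 fold change, Positive minus Input (y axis), against the length of the longest GENCODE protein-coding transcript (x axis, log scale), with the median and middle 50% of all genes in length bins as a line and a grey band and 37 channel genes as points coloured by class. The line rises from the shortest bin to the next and then declines with length, and most calcium pores lie under the band.

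When quadratic trends in transcript length and GC content were removed from every library, a computation added after the values were seen, the class medians kept their order, and those below 0 moved nearer to 0 (the Cacng median moved from just under 0 to 0.01). The median of the 40 genes was -0.08, with 31 below 0, against -0.02 over 14329 genes. The calcium pores had a median of -0.26 with 10 of 10 below 0, the alpha2delta genes -0.18, the HCN genes -0.10, the sodium pores -0.03 and the sodium beta genes 0.20, which is farther from 0 than before. Cacna1h was at -0.39 (SE 0.08), Cacna2d2 at -0.40 (SE 0.09), Hcn3 at -0.35 (SE 0.09) and Cacna1f at -0.30 (SE 0.06). Cacna1i was at -0.01 (SE 0.08). Limma called 0 of the 40 at an adjusted p under 0.05 here. At an unadjusted p under 0.05 there were 7 lower and 1 higher, against 9.34% and 7.17% of the genes in that fit, and the pore median minus the auxiliary median was -0.07.

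**Figure D4:**
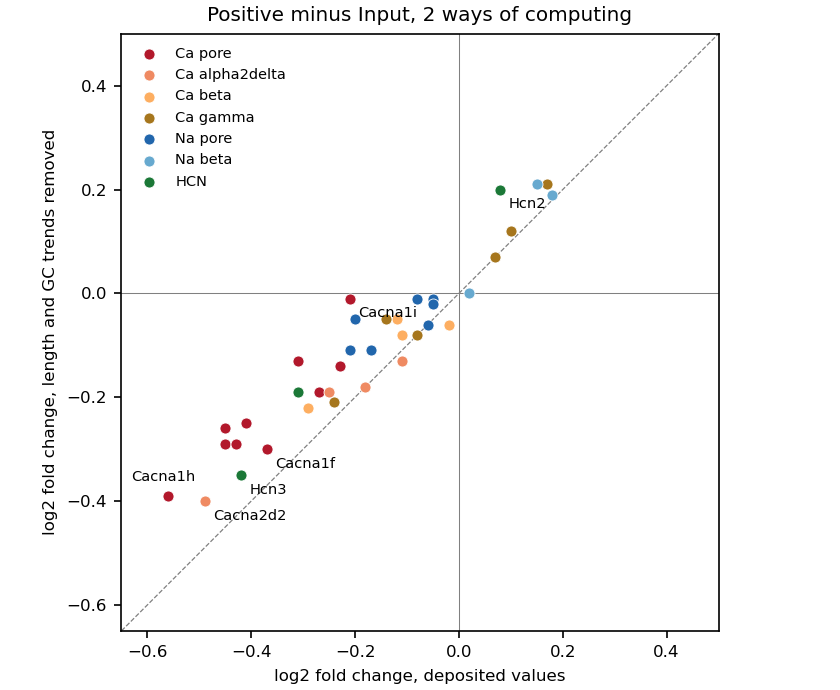
Log2 fold change, Positive minus Input, of 37 channel genes from the deposited values (x axis) and after trends in transcript length and GC content were removed from each library (y axis), with a dashed line of equality and points coloured by class. Most calcium and sodium pores lie above the line and so nearer to 0, while Cacna1h, Cacna2d2 and Hcn3 remain below -0.3 on both axes.

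Proteins that bind or place these channels were listed separately, and 29 of the 31 listed genes were measured. Of these 20 were below 0 and 9 above, with a median of -0.11, and all Positive libraries lay below both Input libraries in 11 (37.9%, against 21.8% of all genes) and above both in 3 (10.3%, against 16.7%). Limma called 0 of the 29 at an adjusted p under 0.05, with 6 lower and 0 higher at an unadjusted p under 0.05, against 7.76% and 6.45% of all genes. The 3 lowest were Stac3, Rimbp2 and Bsn. Stac3, an adaptor of the muscle calcium channel, had -0.67, -0.43 and -0.25 in Positive, against 0.05 and 0.00 in Input. Rimbp2, which links calcium channels to the release machinery, had -0.47, -0.44 and -0.20 in Positive, against 0.00 and 0.10 in Input. Bsn, the active zone scaffold Bassoon, had -0.38, -0.37 and -0.19 in Positive, against 0.00 and 0.16 in Input. In these 3 genes the groups did not overlap and, as in the presynaptic calcium pores, Positive 55 lay nearest to Input.

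The 3 highest of the partners were Stac, Fam155a and Fgf12. Fam155a, a subunit of the sodium leak channel complex, had 0.25, 0.39 and 0.07 in Positive, against 0.00 and -0.14 in Input, without overlap (log2 fold change 0.31, SE 0.12, adjusted p = 0.357 in limma). Fgf12, an intracellular fibroblast growth factor homologue that binds sodium pores, had 0.53, 0.51 and 0.17 in Positive, against 0.22 and 0.00 in Input. Stac, another adaptor of L-type channels, had 0.54, -0.11 and 0.28 in Positive, against 0.00 and -0.54 in Input. The groups overlapped for Fgf12 and Stac. Cabp4, which tunes the photoreceptor channel built on Cacna1f, was at -0.02 (log2 fold change, SE 0.08), and Pex5l, a binding partner of HCN channels, was at 0.07 (SE 0.07).

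Limma called 0 of the 101 measured markers of retinal and other cell types at an adjusted p under 0.05. At an unadjusted p under 0.05 there were 27 higher and 7 lower, against 6.45% and 7.76% of all genes. The 27 include Oca2, which passed the submitters' minimum in 1 condition only. Aldh1l1 had 0.11, 0.44 and 0.48 in Positive, against 0.00 and 0.08 in Input. All 13 Müller glia markers had their Positive values above both Input values, against 16.7% of all genes, with a median log2 fold change of 0.45. Bipolar cell markers were below 0 in 9 of 9 (median -0.13), amacrine markers in 5 of 7 (-0.05), cone markers in 4 of 8 (-0.01) and rod markers in 3 of 8 (0.02). Ganglion cell markers were above 0 in 11 of 12 (median 0.25), beside sodium pores with a median of -0.07 and sodium beta genes with 0.16. Of the striated muscle markers 3 of 7 were measured, and they differed in sign: Acta1 at 0.32, Ckm at -0.09 and Ttn at -0.25. Their median was -0.09, beside Cacna1s, Scn4a, Cacnb1 and Stac3 at -0.27, -0.21, -0.29 and -0.48. As in Müller glia, all measured markers were above 0 in astrocytes (5 genes, median 0.68) and endothelium (7 genes, 0.68). The same held for mural cells (6 genes, 0.43). The median was 0.22 in microglia (4 of 7 above 0) and -0.01 in oligodendrocytes (2 of 5). The markers of pigment epithelium and melanocytes had a median of 1.12 in the 5 genes that passed the submitters' minimum in both conditions, with 4 of 5 above 0. Oca2 and Best1 passed it in 1 condition only and are left out of that median. The values hold no level, so how near a marker lies to the submitters' minimum cannot be told. The part of these cell types in the channel values was not tested.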

How the data were processed

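Nuclear RNA was sequenced from captured (Positive) and unsorted (Input) retinal nuclei. The labels' protocol opens with brain tissue but names retina as the tissue homogenised. The authors deposited normalized log2 values for 16423 rows and 5 libraries. The gene models came from RefSeq per the file headers, and a row had to reach a raw value of 5 in all libraries of 1 condition. The build mm10 and the tool DESeq are named in the submitters' processing notes, while aligner, counter and depth are not given in the sources. In 16029 genes 1 or both Input values were exactly 0, so each gene is expressed relative to its own Input level.

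Titles give the fraction that defines the groups, and replicates are separate animals. The contrast of Positive and Input was fitted with limma 3.58.1 (R 4.3.3) without a variance trend, over 16422 genes with 1 row per symbol, two-sided, with Benjamini-Hochberg adjustment. In simulated data without animal pairing, the script recovered on average the size of added changes that were larger than any channel difference here. That run does not show whether changes of the size seen here would be called. Exact permutation of 3 against 2 libraries was not used. Libraries of animals 40 and 55 are paired by the labels. Across genes, their deviations from the group means correlated at r = 0.174 and 0.195. The consensus correlation of libraries of the same animal, which limma estimated for the random block, was 0.514. The animal was fitted as a fixed and as a random replicate block, among the alternatives. All 40 channel genes and 14329 genes in all were matched by symbol to a GENCODE M21 protein-coding transcript. Promoter windows are from RefSeq on GRCm38.p6. The channel genes and the lists were chosen with earlier results of these data known. Values in every library are given for the 3 highest and 3 lowest members of each class, or all members of classes of 6 or fewer, and other genes named were picked after their values were seen. Of the 40 channel genes, 37 are named or drawn, and the others enter the counts and medians but are not reported here.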

Additional observations from a re-analysis of the deposited data

How the results depend on the processing

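A random replicate block for the animal gave 11 calls in limma over the whole table and a fixed replicate block 0. Among the 40 channel genes both called 0, with lowest adjusted p of 0.107 and 0.287. In the other settings 0 genes were called, and the lowest adjusted p of the channel genes lay between 0.214 and 0.868. Leaving out 1 library gave pore minus auxiliary medians between -0.24 and -0.08 and medians of the 40 genes between -0.24 and -0.11. With the fixed and random blocks the median of the 40 genes was -0.11 and -0.14, and with Scn2a1 added it was -0.17. Of the 40 genes 29 kept their sign in all 13 settings, 22 lower and 7 higher, among them the 10 calcium pores and the 4 alpha2delta genes. The signs of the other 11, among them Cacnb2, Cacnb4, Cacng3, Cacng8, Scn11a, Scn1a, Scn4b, Scn7a and Scn9a, changed in at least 1 setting, and 8 of these changed sign after quantile normalization; the cause was not tested. With 5 libraries and no counts, the SE of a gene holds the spread between animals, which limma moderates with that of all genes, and no counting error of its own can be given.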
